A study of Capsella grandiflora and Capsella rubella and Capsella orientalis with 27 samples.

Results

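Dividing flower buds of Capsella orientalis were compared with dividing flower buds of Capsella rubella, using the 3 libraries of each species at that stage. These are 6 of the 27 libraries of a series on 3 Capsella species at 3 stages, and every file lists the same 26521 gene identifiers, all of which were taken into account here. The other groups of 3 libraries used beside them are expanding and maturing flower buds and 10 day old seedlings of both species, and all 3 stages of Capsella grandiflora. All samples are total RNA, and the labels name no treatment, accession, age of the budding plants or number of plants pooled, so each species is known here only as the plants sampled. A species difference can therefore not be told apart from a difference between the sampled lines.

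Both species fertilise themselves, whereas their relative C. grandiflora depends on pollen from other plants, and the series is about a shared molecular basis of what changed in the selfers. Selfing lineages of this genus are known for the selfing syndrome, with small petals, little pollen and weak scent. In the mustard family young buds grow mostly by cell division, while older buds expand their organs and mature their anthers, so that transcripts of late anther and pollen development are typically abundant in old buds and scarce in young ones. C. rubella and C. orientalis arose as selfers independently, so that a direct comparison shows where the selfers differ from each other.

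The identifiers start with Carubv, and the files do not pair them with gene names or functions. The species whose gene models the reads were counted on is not given in the sources used here, and its part in the calls, those with a species at 0 counts included, was not tested. Genes were therefore described by their stage profile in the C. grandiflora libraries, which are no part of the contrast. A stage-preferential gene passed edgeR's test with an excess of at least 2-fold over both remaining stages. A gene was taken as both-bud when it was at least 2-fold above seedlings in both kinds of bud without a 2-fold call between them, and even when all fitted folds between stages were under 2-fold. In bulk tissue, fewer cells of a type and less RNA per cell cannot be told apart.

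Gene counts per library, in units of 1 M reads, were 25.3 to 28.7 M in C. orientalis and 21.2 to 34.4 M in C. rubella. Levels are given as CPM, the count scaled to library size with TMM factors (trimmed mean of M-values), and folds as log2 of C. orientalis over C. rubella with a standard error (SE) from edgeR's fit. The first principal component of the 6 libraries held 91.8% of the variance and separated the species, while the second, with 2.87%, set C. rubella replicate 2, the library with the fewest counts, apart from the rest. Without that library 12693 genes were called between the species, in place of 13584. Among 14712 genes with a mean of at least 5 CPM, the median SD of log2 CPM between replicates was 0.07 in both species. The dividing-preferential genes of C. grandiflora held 5.49% ± 0.147 of counts in C. orientalis dividing buds and 5.26% ± 0.172 in C. rubella (SD, n = 3 each), against 2.06% and 2.17% in expanding buds and 0.902% and 0.899% in seedlings, so the stage label held in both species by this measure. Reads aligned to several places made up 7.90% ± 0.386 of all listed reads in C. orientalis and 4.45% ± 0.0836 in C. rubella, and reads outside any gene 4.11% ± 0.0874 and 5.57% ± 0.0999 (SD, n = 3 each). The part of such differences in read assignment in the results was not tested.

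Most genes differed between the species in dividing buds, usually by a small amount. edgeR's quasi-likelihood test called 13584 of 23186 tested genes (58.6%) at a Benjamini-Hochberg adjusted p under 0.05, with 7213 (31.1%) higher and 6371 (27.5%) lower in C. orientalis. Which direction held more calls depended on the scaling and on the libraries fitted, with 6531 higher and 6840 lower on unscaled totals and 7143 and 7372 with the 6 libraries alone. Of the called genes 7785 differed by less than 2-fold, with a median absolute log2 fold of 0.49. At least 2-fold, 5799 genes differed (25% of those tested), 3033 higher (13.1%) and 2766 lower (11.9%). By the fitted fold 747 (3.22%) were at least 16-fold higher and 662 (2.86%) lower. The lower species was at 0 counts in 612 of the 5799 genes, and a fitted fold is then no bound. With such groups set at 3 counts per library, which is about 0.0748 to 0.122 CPM, 2934 genes were at least 2-fold higher and 2679 lower, and 522 and 442 at least 16-fold. The 3 libraries of one species lay wholly above those of the other in 97.9% of called genes and in 70.1% of all tested genes. The plot of gene levels shows both directions spread over the whole range of levels, with the widest scatter at low levels.

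**Figure D1:**
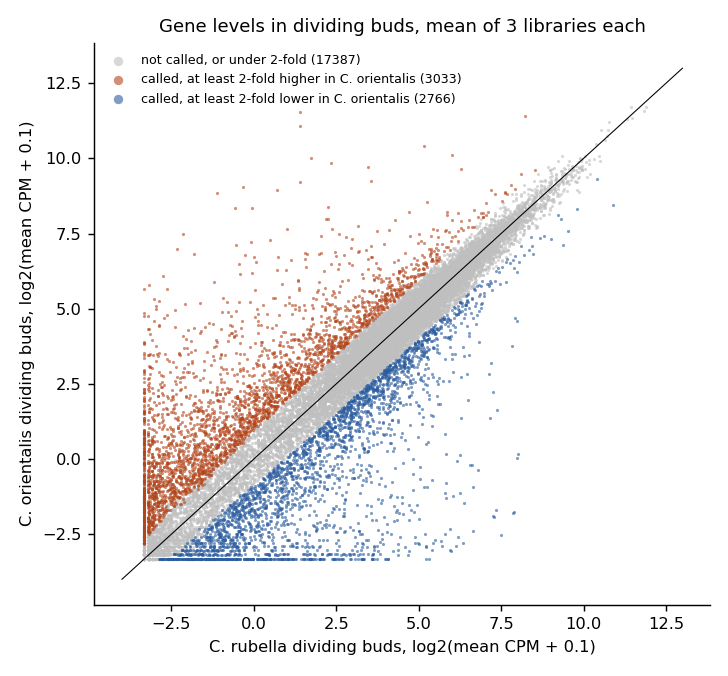
Mean level of each of 23186 tested genes in dividing buds of C. rubella (x axis) and C. orientalis (y axis), as log2(mean CPM + 0.1) over 3 libraries each; the line marks equal levels. The 3033 genes at least 2-fold higher and the 2766 at least 2-fold lower in C. orientalis flank a narrow band of genes that were not called or differed by less than 2-fold.

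Large folds were concentrated in genes with few reads. Of the 4638 tested genes with the lowest mean CPM over the 9 groups, 45.9% were called at least 2-fold, and of the 4637 with the highest, from 51.8 CPM upward, 9.34%. Among those highest genes 294 genes were at least 2-fold higher and 139 lower in C. orientalis. The 100 genes with the most reads in C. grandiflora dividing buds, a set chosen without the libraries compared, took 9.92% to 10.1% of counts in C. orientalis and 10.3% to 10.6% in C. rubella. Of these, 16 were called higher and 22 lower, and 4 and 5 by at least 2-fold, beside 31.1% and 27.5% of all tested genes called and 13.1% and 11.9% at least 2-fold. The median of their log2 folds was -0.03, against 0.03 over all tested genes.

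A few genes with very many reads stood far apart between the species. Among the 6 with the most reads of those at least 2-fold higher, a pair that C. grandiflora expressed preferentially in seedlings averaged 2957 ± 106 and 2180 ± 284 CPM in C. orientalis dividing buds, against 2.55 ± 0.167 and 2.56 ± 0.542 CPM in C. rubella (SD, n = 3 each). Their log2 folds were 10.18 (SE 0.27) and 9.76 (SE 0.31), with Benjamini-Hochberg adjusted p = 6.53e-20 and 2.57e-18 in the quasi-likelihood test of edgeR. In seedlings both species expressed the pair, at 621 and 446 CPM in C. orientalis and 448 and 515 CPM in C. rubella. The pair averaged 2198 and 1577 CPM in C. orientalis expanding buds, against 13.5 and 66.2 CPM in C. rubella. Reads of both genes were thus assigned in C. rubella, and its bud levels were low beside its seedlings. In C. grandiflora dividing buds the pair stood at 4.56 and 3.45 CPM.

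The gene with the most reads of the expanding-preferential group followed another order, at 2703 ± 253 CPM in C. orientalis, 1598 CPM in C. grandiflora and 296 ± 39.0 CPM in C. rubella dividing buds. A both-bud gene was at 1375 ± 117 CPM in C. orientalis and 35.4 ± 12.9 CPM in C. rubella, with a log2 fold of 5.27 (SE 0.28), whereas in expanding buds its means were 604 and 478 CPM. A dividing-preferential gene stood at 1098 ± 166 against 64.0 ± 4.23 CPM. On the other side, the gene with the most reads of those at least 2-fold lower was a both-bud gene, at 347 ± 101 CPM in C. orientalis and 1916 ± 115 CPM in C. rubella, with 1966 CPM in C. grandiflora. The other 5 genes of that kind had log2 folds of -1.95 to -1.10.

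Some genes had reads in one species and almost none in the other. By a rule of at least 5 CPM in one species and at most 3 counts in every library of the other, 59 genes (0.254% of those tested) were present in C. orientalis alone and 96 (0.414%) in C. rubella alone. The median level in the species that had reads was 10.9 and 10.8 CPM. How often the lists recurred at the other stages was counted and not tested. Of the 96 C. rubella genes, 71 met the same rule in expanding buds, 58 in seedlings and 49 at all 3 stages, and in 0 of them did C. orientalis reach a mean of 5 CPM at another stage. Of the 59 C. orientalis genes, 24 met the rule in expanding buds, 13 in seedlings and 12 at all 3 stages, and C. rubella reached 5 CPM at another stage for 20 of them. Of the 59, 22 were expanding-preferential in C. grandiflora, and of the 96, 4, beside 2730 of the 23186 tested genes. In C. grandiflora dividing buds, 10 of the 59 and 36 of the 96 genes had a mean of at least 5 CPM. Where reads are missing at every stage, an absent transcript and a gene model that the reads of one species do not match cannot be told apart.

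Carubv10019472m.g had the largest fitted fold of the genes higher in C. orientalis, among those with at least 10 CPM in the higher species. Its level was 46.0, 53.4 and 50.9 CPM in the 3 C. orientalis libraries and 0 counts in all 3 C. rubella libraries, at least 520-fold higher against a floor of 3 counts per library (Benjamini-Hochberg adjusted p = 1.64e-16, quasi-likelihood test of edgeR). It stood at 49.2 CPM in C. orientalis expanding buds and 89.3 CPM in seedlings, while C. rubella held 2 and 6 counts over 3 libraries. Carubv10018781m.g was next, at 26.3, 31.9 and 28.2 CPM against 0 counts, at least 299-fold higher (Benjamini-Hochberg adjusted p = 1.23e-17, quasi-likelihood test of edgeR). C. grandiflora expressed it at 13.2, 14.2 and 14.3 CPM in dividing buds, while C. rubella held 3 counts in expanding buds and 1 in seedlings.

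Carubv10014947m.g had the largest fitted fold in the other direction, at 38.9, 41.1 and 40.04 CPM in C. rubella and 0 counts in the 3 C. orientalis libraries, at least 404-fold apart (Benjamini-Hochberg adjusted p = 2.57e-13, quasi-likelihood test of edgeR). Carubv10017463m.g stood at 37.2, 37.2 and 37.0 CPM in C. rubella against 0 counts, at least 375-fold lower (Benjamini-Hochberg adjusted p = 4.58e-16, quasi-likelihood test of edgeR). C. grandiflora dividing buds held it at 21.8, 22.7 and 26.9 CPM, and its mean in C. rubella was 37.1 CPM in dividing buds, 39.8 CPM in expanding buds and 19.7 CPM in seedlings. Across expanding buds and seedlings C. orientalis held 5 counts or fewer of each of these genes, over 3 libraries per stage. The 4 genes were chosen among those whose libraries did not overlap in dividing buds, as in 70.1% of all tested genes, and the libraries of C. orientalis and C. rubella did not overlap at the other stages either.

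**Figure D2:**
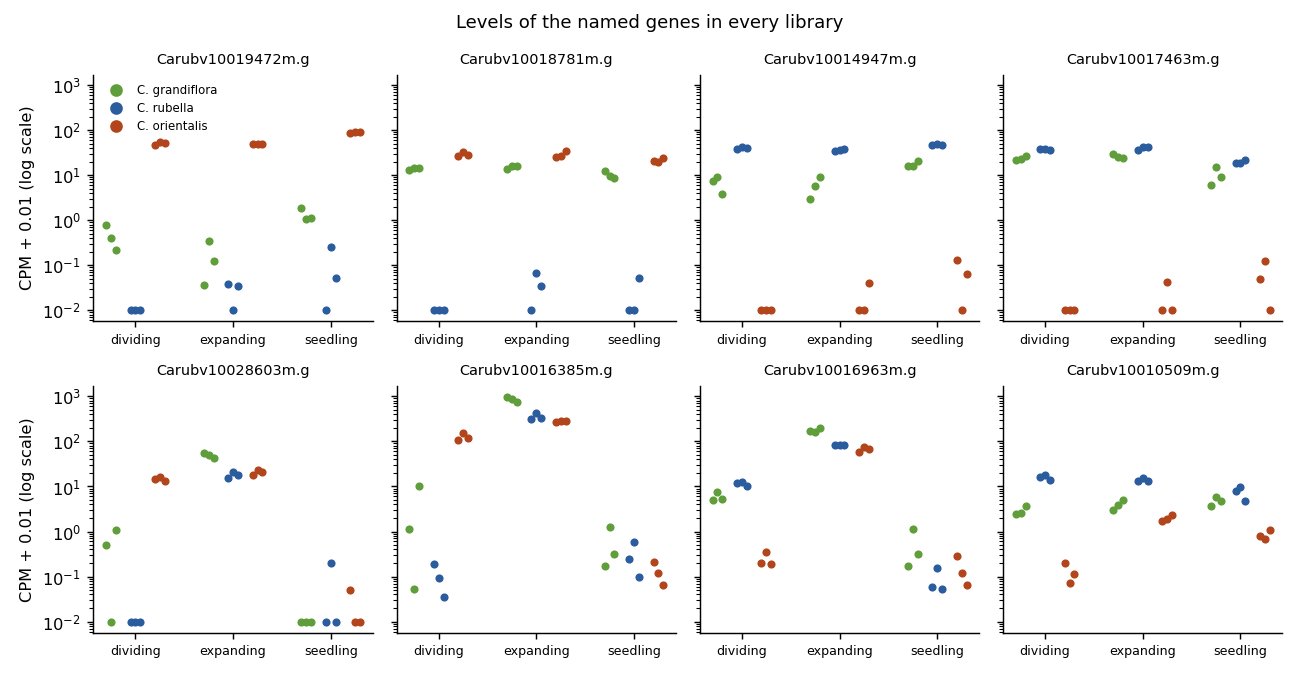
Level of the 8 named genes in every library, as CPM + 0.01 on a log axis, with 1 point per library and the species in the same order within each stage. The upper row holds the 2 genes each way with the largest fitted folds in dividing buds among those with at least 10 CPM in the higher species, all with the lower species at 0 counts; the lower row holds 4 genes whose difference was larger in dividing buds than at the other stages.

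The same species contrast in expanding buds and in seedlings rests on other libraries, and many differences recurred there. Of the 13584 genes called in dividing buds, 9441 (69.5%) were called the same way in expanding buds, which is 65.5% of the 14410 called there (62.1% of those tested), and 774 the opposite way. For seedlings, 7376 genes were called the same way (54.3% of the dividing-bud list and 52.8% of the 13963 seedling calls, themselves 60.2% of those tested) and 1632 the opposite way. Across the 23186 genes the Pearson correlation of log2 folds with those of dividing buds was 0.709 for expanding buds and 0.544 for seedlings, with Spearman correlations of 0.631 and 0.416. The genes are not independent, and all stages share the gene models. The plots of folds by stage show the closer relation to expanding buds.

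**Figure D3:**
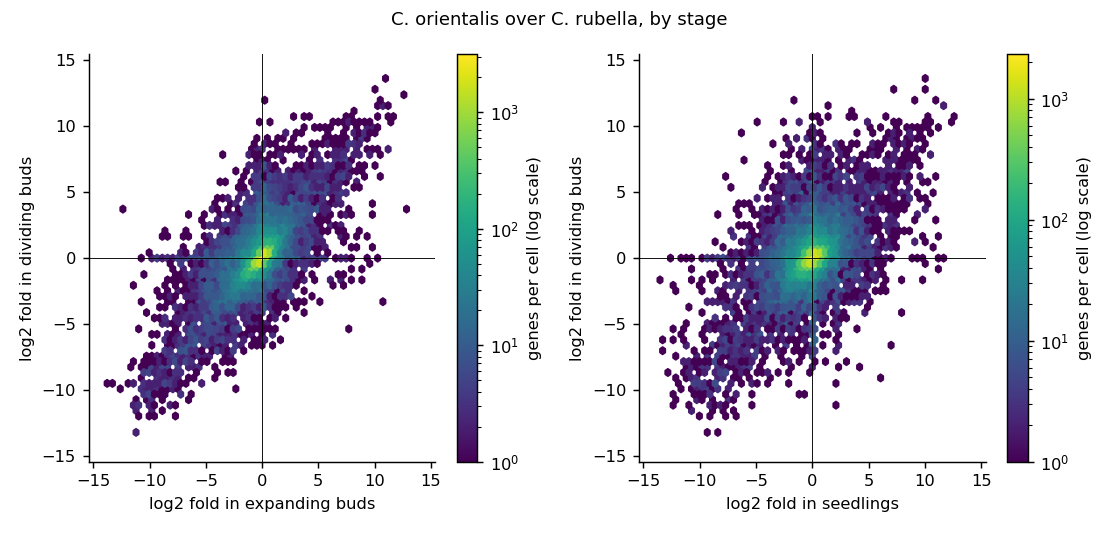
Log2 fold of C. orientalis over C. rubella in dividing buds (y axis) against the same fold in expanding buds (left) and in seedlings (right), with the number of genes in each cell as colour on a log scale. Genes lie along the diagonal in both panels, more closely for expanding buds (Pearson 0.709) than for seedlings (0.544).

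The recurrence of large differences was counted for each direction, and the directions were not tested against each other. Genes at least 2-fold lower in C. orientalis outnumbered those higher at the other stages, but not in dividing buds. Over all tested genes there were 3536 lower and 2131 higher in expanding buds and 3158 and 2666 in seedlings. Of the 2766 genes at least 2-fold lower in dividing buds, 1192 (43.1%) were called at least 2-fold lower at both other stages, 790 in expanding buds but not seedlings, 211 in seedlings but not expanding buds, and 573 (20.7%) at neither. Of the 3033 genes at least 2-fold higher, 737 (24.3%) were called at least 2-fold higher at both other stages, 604 in expanding buds but not seedlings, 386 in seedlings but not expanding buds, and 1306 (43.1%) at neither. A missed call at another stage does not show that a gene did not differ there.

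Genes of the expanding stage were more often higher than lower in dividing buds of C. orientalis. Higher calls numbered 1200 (44%) and lower calls 451 (16.5%) among the 2730 expanding-preferential genes, beside 31.1% and 27.5% of all tested genes. At least 2-fold, 863 (31.6%) were higher and 265 (9.71%) lower, beside 13.1% and 11.9%. Their median log2 fold was 0.47, or 0.35 with groups at 0 counts set at the floor, against 0.03 and 0.01 over all tested genes. The same genes were balanced in expanding buds, with 790 higher and 870 lower and a median of 0.01, against 29.6% higher and 32.6% lower over all genes.

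The share of reads showed the same pattern. Expanding-preferential genes took 4.81%, 4.92% and 4.87% of counts in the 3 C. orientalis dividing bud libraries and 3.07%, 3.15% and 3.17% in those of C. rubella. No library overlapped, and the means of 4.87% ± 0.0545 and 3.13% ± 0.0540 (SD, n = 3 each) differ by 1.73 percentage points (exact two-sided permutation p = 0.1, the smallest that 3 against 3 libraries allow). C. grandiflora lay between them, at 4.13%, 4.09% and 4.57%, but the group was chosen on these same libraries. In expanding buds the shares of the selfers overlapped, at 15.5% ± 0.127 and 14.9% ± 0.452 (exact permutation p = 0.2, n = 3 each), and in seedlings they were 2.22% and 2.18%. With the group defined at 4-fold, every C. orientalis library lay above those of C. rubella in expanding buds too, at 9.85% against 9.225%. The same held in seedlings, at 0.375% against 0.348% (exact permutation p = 0.1 at each stage). The ratio of means was then 3.32 in dividing buds, 1.07 in expanding buds and 1.08 in seedlings. Whether buds of the same size or age were taken in both species is not given in the sources used here, and the part of bud age in these differences was not tested.

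**Figure D4:**
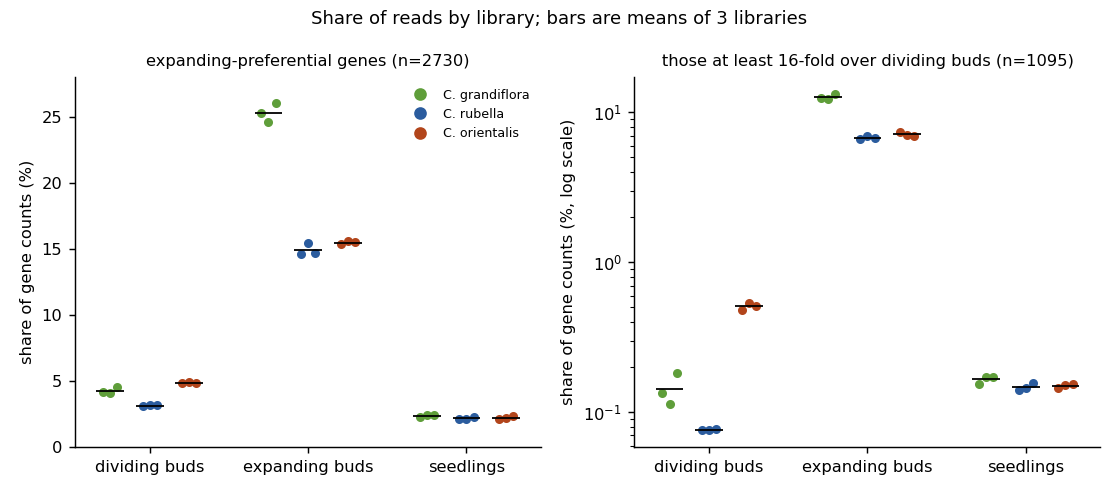
Share of gene counts per library taken by the 2730 expanding-preferential genes (left, linear axis) and by the 1095 of them at least 16-fold above dividing buds in C. grandiflora (right, log axis), with 1 point per library and bars for the mean of 3. In dividing buds the C. orientalis libraries lie above those of C. rubella in both panels, while in expanding buds and seedlings the selfers lie close together.

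The balance of higher and lower genes was read against how strongly C. grandiflora raised a gene in expanding buds. Where C. grandiflora expanding buds exceeded dividing buds by a log2 fold of 0 to 1, 9.03% of 6646 genes were at least 2-fold higher and 9.54% lower in C. orientalis. The shares were 31.3% and 13.7% of 1311 genes at a log2 fold of 2 to 4, 32% and 11% of 525 genes at 4 to 6, and 41.8% and 3.23% of 744 genes above 6. The medians did not rise evenly, at 0.41 for a log2 fold of 2 to 4 and 0.37 for 4 to 6, or 0.29 and 0.09 with zeros at the floor. For the 744 genes the median was 1.36, or 0.84 with zeros at the floor, while it was 0.03 in expanding buds. At the other end, of 628 genes at least 16-fold higher in dividing buds of C. grandiflora, 12.7% were at least 2-fold higher and 28% lower in C. orientalis, with a median of -0.26. The 628 genes had a median of -1.54 in expanding buds.

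**Figure D5:**
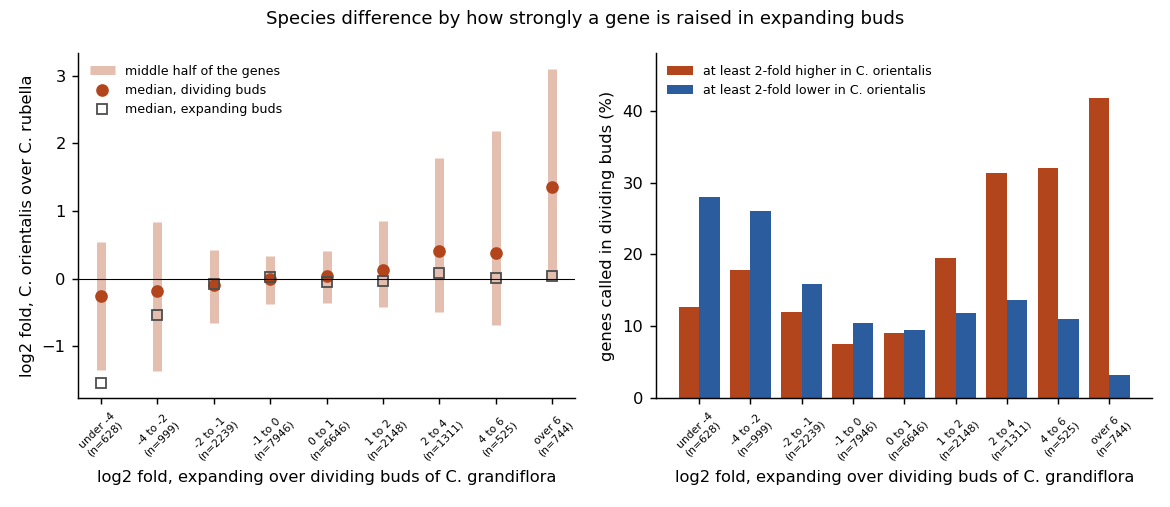
Genes grouped by the log2 fold of expanding over dividing buds in C. grandiflora (x axis, with the number of genes). Left, the median log2 fold of C. orientalis over C. rubella in dividing buds (filled, with the interquartile range) and in expanding buds (open squares); right, the percent of genes called at least 2-fold higher or lower in dividing buds, which reaches 41.8% against 3.23% above a log2 fold of 6.

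Of the expanding-preferential genes, 1095 exceeded dividing buds by at least 16-fold in C. grandiflora, a limit chosen after the data were seen and given as a description. Together they took 0.481%, 0.537% and 0.514% of counts in C. orientalis dividing buds and 0.0761%, 0.0760% and 0.0770% in C. rubella, a ratio of means of 6.68. Most of the C. orientalis share lay in 34 of these genes, described below. The C. grandiflora libraries lay between, at 0.134%, 0.114% and 0.183%, but the genes were chosen as low in these same libraries beside its expanding buds. In expanding buds the ratio was 1.05, at 7.12% ± 0.237 against 6.79% ± 0.185 (SD, n = 3 each). In C. orientalis dividing buds 459 (41.9%) of the 1095 were higher and 77 lower, beside 31.1% and 27.5% of all tested genes. Most remained low there, with a median of 0.264 CPM against 0.0723 CPM in C. rubella and 11.5 CPM in expanding buds of both. A mean of at least 10 CPM was reached by 53 of them in C. orientalis, 11 in C. rubella and 16 in C. grandiflora dividing buds.

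Some of these genes had many reads in C. orientalis alone among the selfers. The 34 genes with at least 10 CPM in C. orientalis and at least a fitted 16-fold difference, picked for that difference and so described without a test, took 0.328%, 0.387% and 0.375% of counts in C. orientalis dividing buds. The same genes took 0.00388%, 0.00421% and 0.00564% in C. rubella and 0.0484%, 0.0285% and 0.0986% in C. grandiflora. All 34 belong to the 1095 genes chosen on the C. grandiflora libraries, which took 0.510% of counts in C. orientalis and 0.0764% in C. rubella. The ratio of 6.68 for that set thus rests largely on these 34. The median CPM of the 34 was 19.96 for C. orientalis, 0.205 for C. rubella and 2.10 for C. grandiflora. In expanding buds the medians were 86.7, 73.7 and 154 CPM in the same order, so that reads of these genes were assigned in C. rubella at that stage.

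Dividing-preferential genes, those of the sampled stage, leaned the other way by gene but not by reads. C. orientalis was higher for 515 (25.8%) and lower for 712 (35.7%) of 1996 such genes, beside 31.1% and 27.5% of all tested genes. At least 2-fold, 292 (14.6%) were higher and 447 (22.4%) lower, beside 13.1% and 11.9%, so both exceeded the share over all genes. The median log2 fold of the group was -0.15. Their summed shares overlapped between the species, at 5.58%, 5.32% and 5.56% in C. orientalis and 5.28%, 5.07% and 5.42% in C. rubella (exact permutation p = 0.2, n = 3 each). The mean share was thus higher in C. orientalis by 0.230 percentage points while the median gene was lower. Both values moved with single libraries, the share difference to 0.139 without C. rubella replicate 2 and the median to -0.09 without C. rubella replicate 3. A few genes with many reads weigh on the share. Of those at least 2-fold higher, the 4 with the most reads averaged 462 to 1098 CPM in C. orientalis and 0.364 to 147 CPM in C. rubella. The 4 with the most reads of those at least 2-fold lower averaged 0.187 to 46.1 and 84.5 to 234 CPM. In C. grandiflora dividing-preferential genes took 8.04%, 7.58% and 8.56%, but the group was chosen on these same libraries. The lean by gene was larger in expanding buds, with 385 higher and 825 lower in C. orientalis and a median log2 fold of -0.53. Over all tested genes 29.6% were higher and 32.6% lower at that stage.

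Both-bud genes were higher more often than lower, with 511 (40.6%) higher and 367 (29.2%) lower of 1258, beside 31.1% and 27.5% of all tested genes. At least 2-fold, 312 (24.8%) were higher and 204 (16.2%) lower, beside 13.1% and 11.9%, so both exceeded the share over all genes. The median log2 fold of the group was 0.14. Their share was 4.99% ± 0.102 of counts in C. orientalis and 4.58% ± 0.144 in C. rubella, and no library overlapped (exact permutation p = 0.1, the smallest possible, n = 3 each). Seedling-preferential genes were balanced, with 1033 (26.6%) higher and 1036 (26.7%) lower of 3884 and a median of 0, and their shares overlapped at 11.8% and 11.9%. Of 8836 even genes 2640 (29.9%) were higher and 2463 (27.9%) lower, near the shares over all tested genes. That order turned with RLE factors (2547 and 2584), unscaled totals (2018 and 2337), DESeq2 (2662 and 2682) and the 6 libraries alone (2839 and 3198). Large differences were uncommon among even genes, with 337 (3.81%) at least 2-fold higher and 612 (6.93%) lower, beside 13.1% and 11.9% of all tested genes. Even genes took 56.2% ± 0.231 of counts in C. orientalis and 57.8% ± 0.242 in C. rubella, and no library overlapped (exact permutation p = 0.1, n = 3 each).

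Whether a species difference depended on the stage was tested as an interaction in the same fit. edgeR's quasi-likelihood test called 5347 genes (23.1%) for which the difference in dividing buds was not that in expanding buds, and 9420 (40.6%) against seedlings. A difference was counted as larger in dividing buds where both interactions were called in the direction of a called difference of at least 2-fold, whether or not the gene also differed at the other stages. Such genes numbered 798 higher (3.44% of genes tested) and 300 lower (1.29%) in C. orientalis. Expanding-preferential genes made up 319 of the 798, which is 11.7% of that group, and 187 were seedling-preferential, 71 both-bud, 61 even and 34 dividing-preferential. Of the 300 lower genes 54 were expanding-preferential (1.98% of that group) and 86 seedling-preferential (2.21%), beside 1.29% of all tested genes.

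Carubv10028603m.g was, by fitted folds, the gene with the largest excess of C. orientalis in dividing buds over the other stages, among genes with at least 10 CPM there. With C. rubella at 0 counts that rank depends on the prior count. Its level there was 14.5, 16.3 and 13.5 CPM against 0 counts in the 3 C. rubella libraries, at least 153-fold higher (Benjamini-Hochberg adjusted p = 1.79e-10, quasi-likelihood test of edgeR). In expanding buds the libraries of the species overlapped, at 17.9, 22.7 and 21.2 CPM in C. orientalis and 15.3, 21.3 and 17.6 CPM in C. rubella, and it was near 0 in seedlings. Its level in C. grandiflora dividing buds was 0.488, 0 and 1.05 CPM, against 49.4 CPM in expanding buds. The interaction with expanding buds had a Benjamini-Hochberg adjusted p = 2.39e-08 (quasi-likelihood test of edgeR).

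Carubv10016385m.g followed the same course at a higher level, with 108, 156 and 117 CPM in C. orientalis dividing buds and 0.184, 0.0814 and 0.0250 CPM in C. rubella. Its log2 fold was 10.35 (SE 0.95, from 9 counts in all in C. rubella; Benjamini-Hochberg adjusted p = 1.35e-09, edgeR), and its mean in expanding buds was 282 ± 8.35 CPM in C. orientalis and 354 ± 60.4 CPM in C. rubella (SD, n = 3 each). The C. grandiflora dividing bud libraries held 1.12, 0.0426 and 10.4 CPM, and so ranged from near 0 to a level between the selfers. Both genes were expanding-preferential in C. grandiflora.

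Carubv10016963m.g, also expanding-preferential, had the largest deficit of C. orientalis in dividing buds over the other stages, by fitted folds among genes with at least 10 CPM in C. rubella. It stood at 0.195, 0.341 and 0.178 CPM there and at 11.7, 12.5 and 10.4 CPM in C. rubella, a log2 fold of -5.55 (SE 0.28; Benjamini-Hochberg adjusted p = 1.59e-14, edgeR). Expanding buds of both species expressed it, at 67.4 ± 8.06 CPM in C. orientalis and 83.5 ± 0.945 CPM in C. rubella (SD, n = 3 each), with a log2 fold of -0.31 that did not pass the quasi-likelihood test of edgeR (Benjamini-Hochberg adjusted p = 0.0628), although the libraries did not overlap. Expanding-stage genes thus did not all lean one way. Carubv10010509m.g, an even gene, was at 0.195, 0.0619 and 0.107 CPM in C. orientalis and 16.5, 18.4 and 13.9 CPM in C. rubella dividing buds, a log2 fold of -7.02 (SE 0.35). Its difference was smaller but called in expanding buds and seedlings, with log2 folds of -2.79 (SE 0.23) and -3.13 (SE 0.29) and Benjamini-Hochberg adjusted p = 2.02e-10 and 1.08e-09 (quasi-likelihood test of edgeR).

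The level in C. grandiflora dividing buds was set beside those of both selfers as a description, on a scale of log2(CPM + 0.1). For the 2766 genes at least 2-fold lower in C. orientalis, C. grandiflora was nearer C. rubella in 1897 (68.6%) and nearer C. orientalis in 869. For the 3033 genes at least 2-fold higher it was nearer C. orientalis in 1535 (50.6%) and nearer C. rubella in 1498. The order depended on the stage group. Among dividing-preferential genes C. grandiflora was nearer the selfer with the higher level, C. orientalis in all but 46 of 292 higher genes and C. rubella in 412 of 447 lower genes. A gene had to be at least 2-fold up in C. grandiflora dividing buds to enter that group, so its position there is not independent of the choice of genes. Among the 863 higher expanding-preferential genes it was nearer C. rubella in 459 (53.2%). That group was also chosen on C. grandiflora libraries, as genes lower in its dividing than in its expanding buds. No outgroup was analysed here, so the position of C. grandiflora does not say which species changed.

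At the other extreme, many genes were held close between the species. For 8114 genes (35% of those tested) the 95% interval of the fold lay wholly within 1.5-fold, and 5669 of them were not called. Of the even genes 5015 (56.8%) were within that limit, against 338 (16.9%) of dividing-preferential and 332 (12.2%) of expanding-preferential genes. The 3 genes of this kind with the most reads stood at 2603 to 3386 CPM in C. orientalis and 2858 to 3813 CPM in C. rubella, with log2 folds of -0.25 to -0.13. A further 3933 genes were neither called nor within 1.5-fold by their interval, so for these neither a difference nor likeness was detectable at this depth. Of all tested genes, 334 (1.44%) had no reads in dividing buds of either species and so could not be called. The interval can be shown for abundant genes far more often, in 63.6% of the 4637 genes with the highest mean level against 0.647% of the 4638 with the lowest.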

How the data were processed

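Each library has 1 deposited file of raw counts by gene identifier. HTSeq and Trimmomatic are named as the authors' tools, per the submitters' processing notes. Per the labels' protocols, TruSeq libraries were read as single reads of 50 cycles on a HiSeq2000. Aligner, genome build, annotation and strandedness were not given in the sources used here. Reads listed as ambiguous or as aligned to several places are not in the gene counts. How other reads of overlapping or near-identical genes were assigned is not known. The 5 summary rows that name no gene were left out, and their shares of all listed reads in dividing buds are 4.01% to 5.69% outside genes, 4.35% to 4.50% ambiguous, 4.35% to 8.33% aligned to several places and 0 for the other rows.

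The tests were run in edgeR 4.0.16 under R 4.3.3: filterByExpr kept 23186 of 26521 genes, libraries were scaled by TMM, and the 27 libraries were fitted together with a mean for each of 9 groups, leaving 18 residual degrees of freedom. Contrasts were tested by the quasi-likelihood F-test with Benjamini-Hochberg adjustment over all tested genes. SEs are the log2 fold divided by the square root of F, and are too small to cover counting error where a group holds few counts. The exact permutation test, two-sided, was used for shares of reads. The method was tested on simulated data.

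Replicate pairs differed by a chi-square of 5.33 to 8.07 per degree of freedom, so all 6 libraries were counted. The labels do not say whether replicates are separate plants, so a p-value here reflects only how far these samples spread, and that spread may be technical. No batch is given in the labels.

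The named genes are, each way, the 2 with the largest folds among called genes with at least 10 CPM in the higher species and no overlap, and, with the same limits, the 2 whose fitted difference in dividing buds most exceeded that at the other stages. The rule allowed more, which are given as ranges because identifiers carry no names. The 23 planned lists by product name matched 0 identifiers and were not used. Members, lists and tests were chosen with earlier results of these data known. Alternatives were RLE factors, unscaled totals, no filter, DESeq2 1.42.0, the 6 libraries alone, a replicate block, stricter limits and each library left out.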

Additional observations from a re-analysis of the deposited data

Results flagged for a closer look

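The species difference in dividing buds differed from that in expanding buds for 5347 genes and from that in seedlings for 9420 genes, by the interaction test of edgeR's quasi-likelihood fit at a Benjamini-Hochberg adjusted p under 0.05. Genes with both interactions called and a difference of at least 2-fold in the same direction numbered 798 higher and 300 lower in C. orientalis.

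Of the named genes, Carubv10028603m.g had an interaction of 11.55 on the log2 scale with expanding buds and 13.42 with seedlings, and Carubv10016385m.g of 10.68 and 11.5. These rest on C. rubella dividing buds at 0 and 9 counts, so their size depends on the prior count. Carubv10016963m.g had -5.24 and -6.59, and Carubv10010509m.g -4.23 and -3.90. All were called by edgeR's quasi-likelihood test, with the highest Benjamini-Hochberg adjusted p = 0.00718 for Carubv10028603m.g with seedlings.

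Every C. orientalis library lay above every C. rubella library in the share of reads of both-bud genes in dividing buds, by 0.415 percentage points of the means, and below in expanding buds, by -0.597. The dividing-preferential genes defined at 4-fold showed the same turn, with 0.377 and -0.0777 percentage points. The differences between stages in these shares were not tested.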

How the results depend on the processing

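All 104 refits of the 8 named genes kept the direction and the call. Of 512 recomputed values, these included, 484 stayed within their limit. The limit was 1.5 times for counts, 1 SD for medians and share differences, and direction and call for named genes. A test against 1.5-fold called 6209 genes, 3217 higher and 2992 lower. At an adjusted p under 0.01 the interaction with expanding buds was called for 3350 genes, and 180 lower genes had a larger difference in dividing buds. With unscaled totals 1090 dividing-preferential genes were lower, beside 691 higher. Both the scaling and the stage groups built with it changed there, and the cause was not tested. The median of even genes was 0.0022 with RLE factors, -0.025 with totals, 0.0058 without a filter, 0.0031 with DESeq2 and -0.024 with the 6 libraries alone, and that of expanding-preferential genes was 0.55 with totals. Seedling-preferential genes had a median of -0.048 with the 6 libraries alone. Allowing 10 counts gave 101 and 154 genes with reads in C. orientalis and in C. rubella alone. Stage groups at 4-fold are smaller: 245 dividing-preferential genes were higher and 385 lower, 711 (44.2%) and 180 expanding-preferential with a median of 0.94, 485 (46.2%) and 273 both-bud, and 589 and 516 seedling-preferential. The both-bud group at 4-fold is no subset of that at 2-fold, as it admits genes 2 to 4-fold apart between the kinds of bud. It held 359 genes at least 2-fold higher, against 312 by the 2-fold limit, and its median was 0.41. The share differences were 1.15, 0.993 and 0.284 percentage points for expanding-preferential, both-bud and seedling-preferential genes, the last against -0.193.

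Leaving out 1 library gave 12510 to 12693 calls, below the full 13584, and a median of 0.42 to 0.49 for expanding-preferential genes. Replicate numbers are shared by the species, but deviations of same-numbered libraries correlated at 0.034 to 0.047 over 23186 genes and at 0.0995 to 0.117 over the 14712 of at least 5 CPM, not all over 0.1, though each library correlated best with its own number. With a replicate block 13585 genes were called, the seedling-preferential median was 0.014, and no named call changed. Low counts limit which genes can be called alike.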
